A study of Homo sapiens with 46 samples.

Results

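This comparison set the chromatin-associated RNA of mesoderm cells against that of the human pluripotent stem cells (hPSC) they were made from. It used 6 of the 46 libraries of the study, 3 of mesoderm chromatin and 3 of hPSC chromatin, picked by the cell type and compartment that the labels give, and every gene that the deposited tables list. The hPSC were cells of the H1 line, an established embryonic stem cell line, kept undifferentiated in mTeSR1 medium on Matrigel. The mesoderm cells came from the same line. They were grown in DMEM/F12 with low serum, 100 ng/ml VEGF, 100 ng/ml BMP4 and 10 ng/ml bFGF, and Activin A at 100 ng/ml was present during the opening 24 h and then withdrawn. A harvest after 5 days is given in the sentence that follows the ectoderm protocol, and it is taken here to cover the mesoderm cells as well. Both kinds of cell were fractionated in buffers with α-amanitin, an inhibitor of RNA polymerase II. The chromatin fraction was the pellet left when nuclei were lysed in NP-40 and urea and spun, so anything that sediments with chromatin is in it. All cells are from 1 line, and the labels do not say whether repeats were separate cultures, so p-values measure the spread between these libraries, which may be technical.

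Chromatin-associated RNA holds transcripts still being made, together with long noncoding RNAs that act or accumulate in the nucleus, and it is often read as a record closer to transcription than the RNA of the cytoplasm. Pluripotent cells are held by a network around POU5F1 (OCT4), SOX2 and NANOG that works with FGF and Nodal/activin signals. Mesoderm forms when BMP, WNT and Nodal signals act on such cells. Streak genes such as TBXT and MIXL1 come on briefly, and cells exposed to strong BMP go on to lateral plate mesoderm, marked by HAND1, TBX3, MSX2 and PDGF receptors, or, outside the embryo proper, to extraembryonic mesoderm and amnion.

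Each cell type has its own deposited assembly of transcripts, so the 2 tables do not list the same features. The hPSC table held 15115 Ensembl genes and that of mesoderm held 15004, of which 12482 were in both. A further 2633 genes were in the hPSC table only and 2522 in the mesoderm table only. A gene missing from an assembly has no count, which is not a count of 0, so these genes were described and not tested. Library totals ran from 12830248 to 15798639 counts in hPSC and from 4990408 to 8767736 in mesoderm. Within hPSC, repeats 1 and 2 had a Pearson's r of 0.995 across genes (log2 CPM + 1; CPM, counts scaled to a common library size), and repeat 3 stood apart from them with 0.954 and 0.958. Within mesoderm, repeat 3 stood apart with 0.943 and 0.937, against 0.966 between repeats 1 and 2. Counts of every pair of repeats differed beyond sampling noise (chi-squared of at least 5.24 per degree of freedom), so each library was counted once. Mitochondrial genes took 4.51% to 5.80% of counts in hPSC chromatin, and 1.12%, 0.769% and 5.53% in mesoderm chromatin repeats 1, 2 and 3.

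On chromatin, 5230 of 12177 tested genes differed between mesoderm and hPSC (edgeR quasi-likelihood test, adjusted p under 0.05), which is 42.9% of the genes tested. Counting direction, 2836 (23.3%) were higher and 2394 (19.7%) were lower in mesoderm, and 3902 of the called changes were at least 2-fold. The median log2 fold change of all genes tested was 0.01, and the called genes had a median absolute change of 1.36 with a median standard error (SE) of 0.29. The groups did not overlap for 55.7% of genes. The matrix protein fibronectin, the T-box factor TBX3 and the ligand BMP4 stood among the rises, and POU5F1, the DNA methyltransferase DNMT3B and the noncoding RNA ESRG among the falls. A gene's value is the sum over the transcripts that its table lists. When only the 13246 Ensembl transcripts listed in both tables were summed, 2960 of 9709 genes were called (30.5%), 1412 higher (14.5%) and 1548 lower (15.9%), with a median of -0.08 over all. Of the 5230 calls, 3818 could be tested that way; 2265 of them were called the same way and 64 the opposite way, and 1412 (27.0%) had no such transcript with enough counts. Results below give this second value, called the shared-transcript value, for named genes and lists where it changes a call or moves a called fold by over 1.5 times. Counts of calls also moved with single libraries. Leaving out hPSC chromatin repeat 2 gave 3746 calls, leaving out mesoderm chromatin repeat 3 gave 5913, and leaving out repeat 3 of both groups, chosen after seeing the data, gave 7311. In the authors' TPM (plus 1, limma) 68.6% of 4867 calls were higher, against 54.2% on counts, and the median of all genes moved to 0.22; upper-quartile scaling moved it to -0.09 with 48.1% of calls higher.

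**Figure D1:**
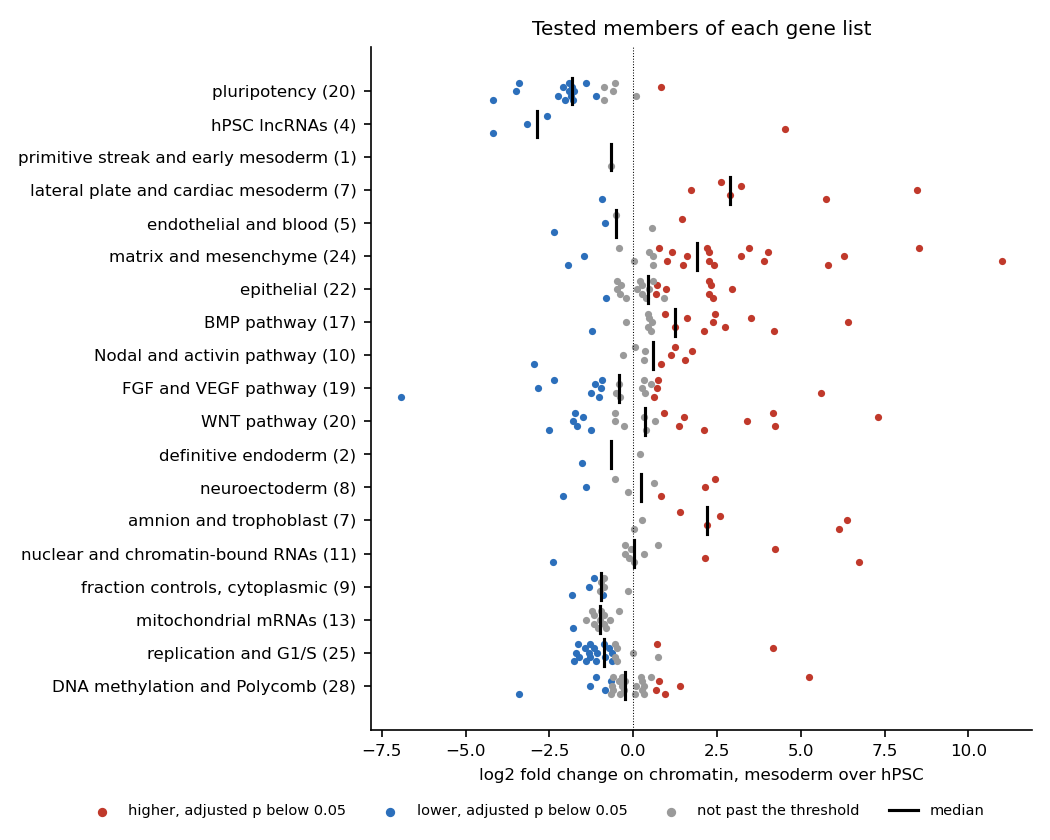
Log2 fold change on chromatin (mesoderm over hPSC) for each tested member of the gene lists; each point is 1 gene, the bar is the list median, and the number tested is in brackets. Pluripotency, hPSC lncRNA and replication genes lie mostly left of 0, and matrix, lateral plate, BMP and amnion genes mostly right of it.

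**Figure D2:**
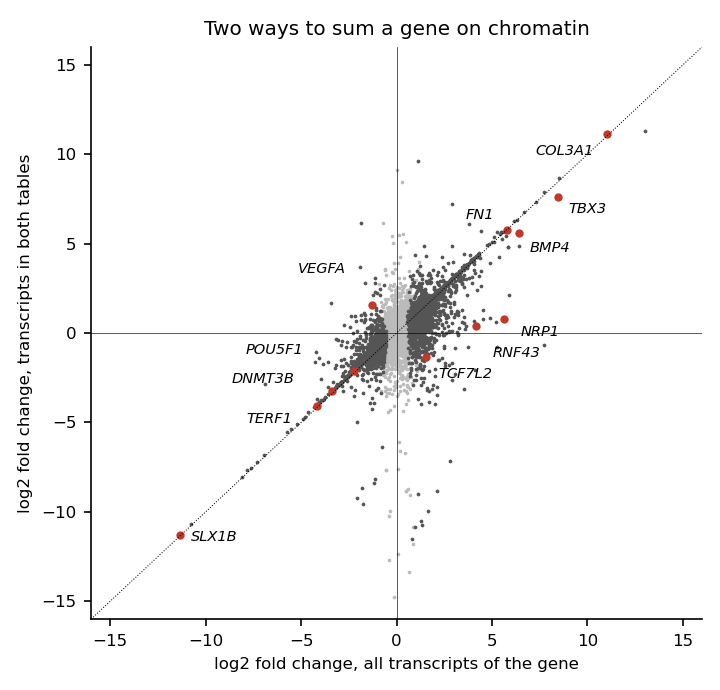
Log2 fold change of each gene summed over all its transcripts (x axis) and over the Ensembl transcripts listed in both tables (y axis), with genes called on the x axis in dark grey and named genes in red. COL3A1, FN1, TBX3, DNMT3B and POU5F1 lie near the dotted line of equal values, while NRP1 and RNF43 drop to near 0 on the y axis and TCF7L2 and VEGFA change sign.

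The pluripotency genes were lower on mesoderm chromatin as far as they could be tested. Of 31 listed genes, 20 were in both tables and passed the filter on low counts; 14 fell, 1 rose and 5 did not pass the test, with a median log2 fold change of -1.82. On shared transcripts 12 of 18 fell and 1 rose. POU5F1 (chr6:31164337-31180731, hg38), the homeobox factor at the core of the network, was at 1175, 1337 and 1233 CPM in hPSC and 268, 191 and 327 CPM in mesoderm. All mesoderm libraries lay below all hPSC libraries, and the log2 fold change was -2.25, SE 0.28, edgeR adjusted p = 2.4e-04. DNMT3B, the de novo DNA methyltransferase most characteristic of pluripotent cells, was at 2411, 2547 and 3070 CPM in hPSC and 182, 270 and 305 CPM in mesoderm. It fell by more than POU5F1 (-3.41, SE 0.32, edgeR adjusted p = 4.0e-05), and the groups lay far apart. TERF1, a shelterin protein that binds telomere repeats and is abundant in pluripotent cells, was at 2624, 2152 and 929 CPM in hPSC and 89.9, 64.6 and 161 CPM in mesoderm. It had the steepest fall of the list (-4.18, SE 0.50, edgeR adjusted p = 1.9e-04) and hPSC repeat 3 was the lowest of the hPSC libraries. LIN28A, which blocks maturation of let-7 microRNAs, fell by 1.84 on the log2 scale, DPPA4 by 1.86, the E3 ligase TRIM71 by 1.92 and ZFP42 (REX1) by 1.40. TRIM71 was not called on shared transcripts (log2 -1.19, edgeR adjusted p = 0.051). L1TD1 (535, 470 and 129 CPM in hPSC and 199, 188 and 226 CPM in mesoderm), LIN28B and SALL4 did not pass the test, and SALL4 was called lower on shared transcripts (log2 -0.75, edgeR adjusted p = 0.04); in L1TD1 and LIN28B the groups overlapped, with hPSC repeat 3 the lowest of its group. PODXL, a sialomucin of the cell surface, stood at 3151, 2912 and 3330 CPM in hPSC and 2793, 3598 and 3510 CPM in mesoderm, with overlapping groups (log2 0.08, SE 0.28). SOX3 was the 1 member that rose (0.84, SE 0.25, edgeR adjusted p = 0.022), and it was not called without mesoderm chromatin repeat 3, where 15 of 20 fell and 0 rose by edgeR.

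A further 10 pluripotency genes were in the hPSC table only, NANOG and SOX2 among them. In hPSC chromatin NANOG stood at 61.7, 60.2 and 54.2 CPM, SOX2 at 297, 295 and 219 CPM, the Nodal co-receptor TDGF1 at 690, 662 and 560 CPM and the PR-domain factor PRDM14 at 101, 88.9 and 103 CPM. FGF2, FOXD3, UTF1, CUZD1 and GDF3 were also in the hPSC table only, and mesoderm levels of these genes on this scale are not known. The promoter of NANOG is shown because its 250 bases upstream of the RefSeq start hold next to each other a match to ATGCAAA, part of the octamer that POU5F1 binds, and one to CATTGT, a SOX-type motif (both strands searched; capitals mark the matches, which are the reverse complements TTTGCAT and ACAATG at 120 to 114 and 112 to 107 bases before the start).

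NANOG, chr12:7789152-7789401, GRCh38.p14, plus strand: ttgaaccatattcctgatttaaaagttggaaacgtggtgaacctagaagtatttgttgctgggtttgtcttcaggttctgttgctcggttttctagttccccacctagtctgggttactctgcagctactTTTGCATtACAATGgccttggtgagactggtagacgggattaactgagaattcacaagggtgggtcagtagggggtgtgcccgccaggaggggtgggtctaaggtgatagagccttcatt

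Of 35116 RefSeq promoter windows of that length, 3.94% held the first motif, 9.29% the SOX motif and 0.541% both. A match is a description of letters and not a measured site.

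A list of 15 noncoding or retrovirus-linked transcripts of pluripotent cells showed the same split between a fall and a missing feature; the annotation types TUNAR, HHLA1 and ABHD12B among them as protein coding. ESRG, a noncoding RNA derived from an endogenous retrovirus, was at 1939, 1980 and 2509 CPM in hPSC and 81.1, 123 and 151 CPM in mesoderm, with no overlap (-4.18, SE 0.34, edgeR adjusted p = 1.9e-05). TUNAR fell by 2.58 on the log2 scale and LINC01356 by 3.16, and LINC02315 rose by 4.52. None of the 3 that could be tested on shared transcripts (TUNAR, LINC01356 and LINC02315) was called there by edgeR, and LINC02315 was at log2 0.77. Of the 15, 10 were in the hPSC table only, and 1 in both tables did not pass the filter. LINC00678 stood at 418, 454 and 457 CPM in hPSC, and LNCPRESS2 at 177, 165 and 116 CPM. LINC-ROR, a lncRNA of induced pluripotent cells, was low even in hPSC, at 2.45, 1.64 and 1.05 CPM. MIR302CHG (chr4:112646476-112650051, hg38, GENCODE type antisense) was at 692, 724 and 944 CPM and was the fourth highest of all 2633 genes of the hPSC table only, by mean CPM. It hosts the miR-302/367 cluster, microRNAs typical of pluripotent cells that let the cell cycle run through G1. The libraries hold no microRNA counts; the mature sequences of the cluster's 3p arms are shown because they lie within this host gene on its strand, with the seed (bases 2 to 8) in capitals.

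hsa-miR-302a-3p: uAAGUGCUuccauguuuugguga
hsa-miR-302b-3p: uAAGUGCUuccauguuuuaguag
hsa-miR-302c-3p: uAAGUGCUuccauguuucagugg
hsa-miR-302d-3p: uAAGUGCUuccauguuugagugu
hsa-miR-367-3p: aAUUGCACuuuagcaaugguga

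The 4 members of miR-302 share the seed AAGUGCU, and miR-367-3p has AUUGCAC (RefSeq, GRCh38.p14). Across both lists, the summed level of all members listed in a library's own table ran from 16086 to 17051 CPM in hPSC and from 5186 to 6706 CPM in mesoderm for pluripotency genes, and from 3418 to 4240 against 172 to 211 CPM for the list of 15; genes missing from a table add nothing to its sums.

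The lateral plate and cardiac mesoderm genes that could be tested were mostly higher on mesoderm chromatin, and streak genes were mostly low. Of 39 lateral plate genes, 7 were tested; 6 rose and 1 (SNAI1, log2 -0.94, SE 0.27) fell, with a median of 2.88, and of the 5 testable on shared transcripts 4 rose and 0 fell by edgeR (SNAI1 there log2 -0.78, edgeR adjusted p = 0.07). TBX3 (chr12:114670254-114684164, hg38), a T-box repressor of limb, heart and extraembryonic lineages, was at 0.189, 0.214 and 0.323 CPM in hPSC and 90.5, 92.0 and 84.3 CPM in mesoderm. The mesoderm values lay within a narrow band and the hPSC values near the level of single counts (8.48, SE 0.32, edgeR adjusted p = 1.4e-06; shared transcripts log2 7.63). MSX2, a homeobox target of BMP signalling, was at 0.818, 0.712 and 0.969 CPM in hPSC and 52.0, 39.9 and 44.6 CPM in mesoderm (5.76, SE 0.29, edgeR adjusted p = 2.6e-06). PDGFRB, a receptor of mesenchymal and mural cells, was at 17.5, 13.6 and 18.1 CPM in hPSC and 151, 186 and 121 CPM in mesoderm. ACTC1, cardiac actin, was at 28.4, 27.9 and 22.9 CPM in hPSC and 158, 131 and 201 CPM in mesoderm. Both rose without overlap, PDGFRB by 3.22 and ACTC1 by 2.63 on the log2 scale. PDGFRA, the receptor most used to mark paraxial and cardiac mesoderm, rose by 1.73 from a low level, and cardiac troponin TNNT2 by 2.88. A further 17 lateral plate genes were in the mesoderm table only. HAND1, a basic helix-loop-helix factor of lateral plate and extraembryonic mesoderm, stood at 41.3, 28.8 and 57.3 CPM. The homeobox factor ISL1 stood at 28.9, 25.5 and 37.4 CPM, MEIS1 at 55.6, 51.6 and 59.0 CPM and GATA6 at 5.56, 3.17 and 3.20 CPM. MEIS2 (55.5), HEY1 (8.35), MSX1 (4.68) and PITX1 (3.55) are given by mean CPM. Lower means were those of NKX2-5 (2.80), FOXC2 (2.47), SNAI2 (2.20), WT1 (1.80), GATA5 (1.10), PRRX1 (0.401) and FOXF2 (0.365). FOXC1 and HOPX were at 0 CPM in every mesoderm chromatin library, so being listed is not a sign of expression. GATA4, HAND2, FOXF1, TBX5, TBX20 and TCF21 were in neither table. Summed over the members listed, this list ran from 59.9 to 65.3 CPM in hPSC and from 692 to 775 CPM in mesoderm.

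The window upstream of HAND1 is shown because GATA6, a factor of the lateral plate, stood in the same table. GATA6 was low there, at 5.56, 3.17 and 3.20 CPM, and GATA5 was lower still by mean (1.10 CPM). GATA3 of the amnion list stood higher, at 94.8, 76.8 and 77.2 CPM. So did GATA2 of the endothelial and blood list, at 30.4, 22.3 and 17.5 CPM. This window was not tested for binding by any of these factors. It holds 1 match to GATAAG, as its reverse complement CTTATC in capitals at 89 to 84 bases before the start, a motif found in 5.65% of the 35116 windows, and none to ATGCAAA or CATTGT.

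HAND1, chr5:154478228-154478477, GRCh38.p14, minus strand: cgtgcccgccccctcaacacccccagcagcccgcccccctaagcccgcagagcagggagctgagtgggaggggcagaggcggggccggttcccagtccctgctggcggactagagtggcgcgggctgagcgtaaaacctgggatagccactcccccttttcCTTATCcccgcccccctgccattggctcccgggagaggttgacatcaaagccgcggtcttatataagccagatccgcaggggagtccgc

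Streak genes, the defining markers of mesoderm just formed, were mostly low or in neither table. Of 23 such genes, 12 were in neither table, EOMES and MESP1 among them, and TBX6 was the only one tested (log2 -0.65, SE 0.64, not called). TBXT (brachyury) was in the mesoderm table only, at 0.214, 0 and 0 CPM, CDX2 at 0, 0.397 and 0 CPM and APLNR at 0.428, 0.264 and 0.534 CPM. MIXL1, the early streak homeobox gene, was in the hPSC table only and reached at most 0.565 CPM. The summed level of this list was 21.7 to 31.9 CPM in hPSC and 1.20 to 7.28 CPM in mesoderm. Its member DLL3, in the hPSC table only at 14.4, 13.7 and 17.4 CPM, counts in the hPSC sum and adds nothing to that of mesoderm. No HOX gene or HOX-cluster lncRNA was in the hPSC table. Of 49 listed, 6 were in the mesoderm table, led by HOTAIRM1 at 6.85, 5.29 and 6.41 CPM, with HOXB2 at 4.28, 2.91 and 3.07 CPM and HOXC13, the only posterior member, at 1.07, 0.661 and 0.267 CPM.

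Extracellular matrix and mesenchymal genes were mostly higher on mesoderm chromatin. Of 24 tested, 17 rose, 2 fell and 5 did not pass, with a median log2 fold change of 1.91; on shared transcripts 15 of 21 rose, with a median of 2.35. FN1 (fibronectin), the main fibrillar glycoprotein that mesodermal cells migrate on, was at 219, 199 and 246 CPM in hPSC and 8913, 14877 and 13459 CPM in mesoderm. FN1 alone took 0.835%, 1.28% and 1.29% of all counts in the mesoderm chromatin libraries and no more than 0.0238% in hPSC (5.81, SE 0.41, edgeR adjusted p = 8.9e-06). COL3A1 (chr2:188974320-189012746, hg38), a fibrillar collagen of soft connective tissue, was at 0.314, 0 and 0.0807 CPM in hPSC and 208, 231 and 501 CPM in mesoderm. The hPSC libraries were at or near 0, with 6 counts in all, and the fitted log2 fold change was 11.01 (SE 0.71). Tenascin TNC was at 7.42, 6.91 and 8.96 CPM in hPSC and 411, 729 and 675 CPM in mesoderm. The hyaluronan link protein HAPLN1 was at 0.880, 0.854 and 0.646 CPM in hPSC and 258, 197 and 445 CPM in mesoderm. They rose by 6.28 and 8.53 on the log2 scale without overlap. TGFBI (4.01), COL5A2 (3.91), COL5A1 (3.46) and the laminin chain LAMB1 (3.22) rose by smaller amounts, and so did the intermediate filament VIM (2.21) and N-cadherin CDH2 (2.40). COL1A1, the main collagen of bone and skin, was at 770, 713 and 966 CPM in hPSC and 1224, 1727 and 1193 CPM in mesoderm, and rose by 0.76 (SE 0.27, edgeR adjusted p = 0.049). VCAN (versican) rose by 2.25 over all transcripts, but its shared-transcript value was -1.52 (edgeR adjusted p = 0.099). COL6A1 fell by 1.47 and biglycan BGN by 1.95. The mesenchymal factors ZEB1 and ZEB2 were in the mesoderm table only and reached at most 0.534 CPM, whereas the proteoglycan lumican (LUM) stood there at 64.8, 46.0 and 155 CPM.

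**Figure D3:**
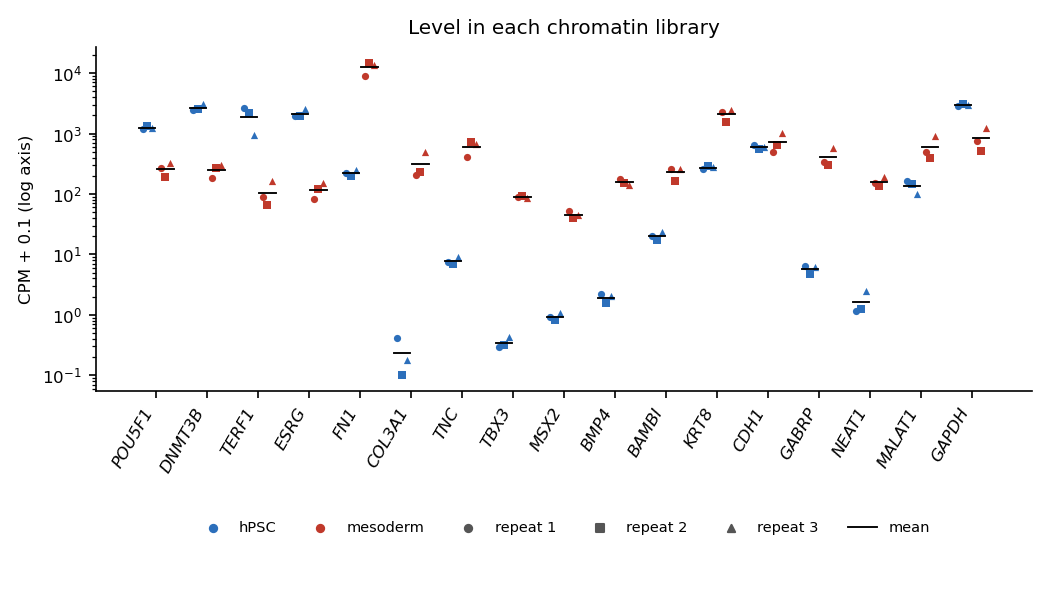
Level of 17 genes in each chromatin library (CPM + 0.1, log axis), hPSC in blue and mesoderm in red, with the mark for the repeat and a bar at the group mean. The groups overlap for CDH1 alone among these genes; COL3A1, TBX3 and NEAT1 start near the bottom of the scale in hPSC.

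BMP signalling genes were mostly higher on mesoderm chromatin, ligand and targets included. Of 17 tested, 10 rose, 1 fell and 6 did not pass, with a median of 1.24, and 8 of 16 rose on shared transcripts. The ligand BMP4, which was also added to the mesoderm medium as protein, was at 2.08, 1.50 and 1.94 CPM in hPSC and 174, 152 and 143 CPM in mesoderm. Its endogenous RNA rose by 6.40 (SE 0.28), or 5.59 on shared transcripts, and all hPSC libraries were within 1 CPM of each other. Among receptors BMPR2 rose by 2.45 and BMPR1A by 0.94; BMPR1A was not called on shared transcripts (log2 -0.05, edgeR adjusted p = 0.86). ACVR1 did not pass the test (0.44) and was called lower on shared transcripts (log2 -0.89, edgeR adjusted p = 0.032). The feedback antagonists rose: the pseudoreceptor BAMBI was at 19.9, 17.4 and 23.3 CPM in hPSC and 258, 166 and 264 CPM in mesoderm (3.50, SE 0.28, edgeR adjusted p = 1.7e-05), SMAD7 rose by 2.38, and follistatin FST by 2.74. Of the ID genes, direct targets of BMP-activated SMADs, ID4 (2.11), ID2 (1.60) and ID1 (1.24) rose and ID3 did not pass (log2 -0.20, SE 0.24). RGMB, a BMP co-receptor of the repulsive guidance family, fell by 1.24 and was not called on shared transcripts (log2 -0.53, edgeR adjusted p = 0.17). In the mesoderm table only were the inhibitory SMAD6, at 67.6, 78.9 and 57.0 CPM, GREM1, at 30.0, 32.5 and 60.6 CPM, NOG, at 28.7, 24.2 and 17.1 CPM, and BMP2, at 17.3, 21.7 and 19.8 CPM.

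Of the Nodal and activin genes tested more rose than fell, and the Nodal ligand was listed in hPSC only. The ligand NODAL, its antagonists LEFTY1 and LEFTY2, the co-receptor TDGF1 and the SMAD partner FOXH1 were all in the hPSC table only. FOXH1 stood at 129, 126 and 152 CPM and NODAL at 1.76, 1.92 and 3.07 CPM, and LEFTY2 reached at most 0.484 CPM. In the mesoderm table only were INHBA, the activin A chain, at 1.93, 2.12 and 2.94 CPM, and the Nodal co-receptor CFC1, at 0.214, 0 and 0.935 CPM. Of 10 genes tested, 5 rose, 1 fell and 4 did not pass, against 23.3% higher and 19.7% lower over all genes. Summed over the members listed, this list went the other way, from 1320 to 1551 CPM in hPSC and from 884 to 1056 CPM in mesoderm. TDGF1 and FOXH1 count in the hPSC sum and add nothing to that of mesoderm. The type I receptor ACVR1B (ALK4) was at 59.1, 60.6 and 74.9 CPM in hPSC and 7.70, 10.3 and 6.81 CPM in mesoderm, and fell without overlap (-2.96, SE 0.26, edgeR adjusted p = 2.8e-05). SMAD3 (1.74), SMAD2 (1.25, and 2.03 on shared transcripts), the proprotein convertase FURIN (1.53) and the type II receptor ACVR2A (1.12) rose, while SMAD4 (0.32) and SKIL (0.36) did not pass the test.

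Genes of FGF and VEGF signalling moved in both directions. Of 19 tested, 8 fell, 4 rose and 7 did not pass. On shared transcripts 2 fell and 6 rose of 17, so the balance of this list turned with the transcripts summed. Over all genes tested 19.7% fell and 23.3% rose, and on shared transcripts 15.9% fell and 14.5% rose. FGF19, a ligand expressed by pluripotent cells, was at 10.6, 13.0 and 17.7 CPM in hPSC and 0, 0 and 0.267 CPM in mesoderm. With 2 counts in all in mesoderm, the ratio of summed counts was 133-fold lower (95% counting interval 36.7 to 1101, exact; intervals cover counting error only). FGFR1 was at 1038, 1030 and 1522 CPM in hPSC and 544, 819 and 535 CPM in mesoderm. It fell by 0.92, and on shared transcripts by 1.47. FLT1, a VEGF receptor that also acts as a decoy, fell by 2.37, and was not called on shared transcripts (log2 -1.37, edgeR adjusted p = 0.06). KDR, the VEGF receptor used to mark vascular mesoderm, was in the hPSC table only, at 214, 187 and 222 CPM. NRP1, a VEGF co-receptor, was at 0.818, 0.783 and 1.13 CPM in hPSC and 29.1, 28.2 and 77.0 CPM in mesoderm, a log2 rise of 5.62 that was 0.77 on shared transcripts (edgeR adjusted p = 0.53). VEGFA fell by 1.26 and the FGF target ETV4 by 1.15, and both changed sign on shared transcripts, to 1.59 and 2.30 (edgeR adjusted p = 0.017 and 0.024). FGFR3 was in the mesoderm table only, at 496, 698 and 254 CPM.

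WNT genes also went both ways, with 8 higher, 6 lower and 6 not past the test of 20, and 5 higher and 5 lower of 16 on shared transcripts. The shares over all genes were 23.3% higher and 19.7% lower, and 14.5% and 15.9% on shared transcripts. The secreted inhibitor SFRP1 was at 960, 923 and 995 CPM in hPSC and 126, 133 and 248 CPM in mesoderm. It fell without overlap (-2.50, SE 0.32, edgeR adjusted p = 2.6e-04), followed by SFRP2 (-1.79). AXIN2, the usual readout of canonical WNT signalling, was at 33.4, 37.4 and 47.9 CPM in hPSC and 14.8, 11.9 and 15.1 CPM in mesoderm. It fell by 1.51 on counts, but it was at 0.18 in the authors' TPM. The receptors FZD2 (2.12) and FZD4 (1.36) and the TNF-family receptor TNFRSF19 (7.31) rose. TCF7L2, a nuclear partner of beta-catenin, was at 110, 114 and 149 CPM in hPSC and 331, 353 and 386 CPM in mesoderm, a rise of 1.52 that turned to -1.35 on shared transcripts (edgeR adjusted p = 0.0061). RNF43, a ligase that removes FZD receptors, rose by 4.16, with 0.39 on shared transcripts (edgeR adjusted p = 0.84). The ligand WNT6 stood at 152, 98.6 and 94.0 CPM in the mesoderm table only.

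Epithelial genes rose more often than they fell. Of 22 tested, 8 rose, 1 fell and 13 did not pass, with a median of 0.43. Over all genes tested 23.3% rose and 19.7% fell. On shared transcripts 7 of 22 rose and 1 fell, against 14.5% and 15.9% over all. Without mesoderm chromatin repeat 3, 7 rose and 3 fell. E-cadherin CDH1 was at 638, 565 and 589 CPM in hPSC and 496, 652 and 1015 CPM in mesoderm, with overlapping groups (log2 0.27, SE 0.30). The adhesion protein EPCAM was at 196, 175 and 80.6 CPM in hPSC and 322, 181 and 356 CPM in mesoderm, also overlapping (log2 0.93, SE 0.37). The simple-epithelium keratin KRT8 was at 257, 285 and 277 CPM in hPSC and 2277, 1532 and 2462 CPM in mesoderm (2.94, SE 0.29, edgeR adjusted p = 6.1e-05). KRT18 rose by 2.33, KRT19 by 2.26, desmoplakin DSP by 2.27 and the epithelial factor GRHL2 by 2.39, the last not called on shared transcripts (log2 1.21, edgeR adjusted p = 0.07). Claudin CLDN7 fell by 0.81. The epithelial list summed to 3968 to 4170 CPM in hPSC and 7442 to 10745 CPM in mesoderm.

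Markers of amnion and trophoblast, which BMP4 also induces from pluripotent cells, were higher with the mesoderm label. Of 22 listed, 7 were tested, 5 rose and 0 fell by the edgeR test; KRT7 (log2 0.03, SE 0.32) and PGF (0.27, SE 0.30) did not pass. The GABA receptor subunit GABRP was at 6.35, 4.63 and 6.13 CPM in hPSC and 331, 304 and 577 CPM in mesoderm (6.14, SE 0.37, edgeR adjusted p = 4.7e-06). The checkpoint ligand VTCN1 was at 0.818, 0.498 and 0.242 CPM in hPSC and 33.8, 27.8 and 74.9 CPM in mesoderm, a rise of 6.38 on the log2 scale with no overlap. TFAP2C rose by 1.39 and IGFBP3 by 2.59. A further 13 were in the mesoderm table only, with TFAP2A at 97.8, 116 and 111 CPM, GATA3 at 94.8, 76.8 and 77.2 CPM, TP63 at 16.3, 15.7 and 22.0 CPM and TFAP2B at 13.7, 11.5 and 16.6 CPM. The trophoblast hormone subunit CGA reached at most 1.74 CPM, and ELF5 2.78 CPM. The list summed to 138 to 149 CPM in hPSC and 1306 to 1725 CPM in mesoderm. Its members ISL1 and HEY1 are on the lateral plate list as well; what part such cells have in the mesoderm libraries was not tested. In bulk RNA, fewer cells of a type and less RNA per cell cannot be told apart.

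Other lineages were low or mixed. Over all genes tested 23.3% rose and 19.7% fell, and on shared transcripts 14.5% rose and 15.9% fell. Of 5 endothelial and blood genes tested, TEK rose by 1.44, FLT1 and EGFL7 (-0.83) fell, and ENG and VWF did not pass; on shared transcripts 0 of 4 were called by edgeR (TEK log2 2.39, adjusted p = 0.054; EGFL7 -0.67, adjusted p = 0.12), and without mesoderm or hPSC chromatin repeat 3, 1 fell. CDH5 (VE-cadherin) stood at 1.50, 2.38 and 2.27 CPM and RUNX1 at 23.5, 36.4 and 59.2 CPM in the mesoderm table only, and PECAM1, CD34 and TAL1 were in neither table. Of 8 neuroectoderm genes tested, 3 rose and 2 fell, and on shared transcripts 3 of 5 rose and 1 fell. Without mesoderm chromatin repeat 3, 2 rose and 3 fell. ZIC5 fell by 2.11 and NCAM1 by 1.40, and OTX2 did not pass (log2 -0.55, SE 0.24). OTX1 rose by 2.15 and MAP2 by 2.45. A further 6 were in the hPSC table only, with ZIC2 at 130, 136 and 167 CPM and CRABP1 at 87.6, 96.6 and 86.5 CPM among them. Of 17 definitive endoderm genes, 2 were tested; FOXA3 fell by 1.52 and SHISA2 did not pass.

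**Figure D4:**
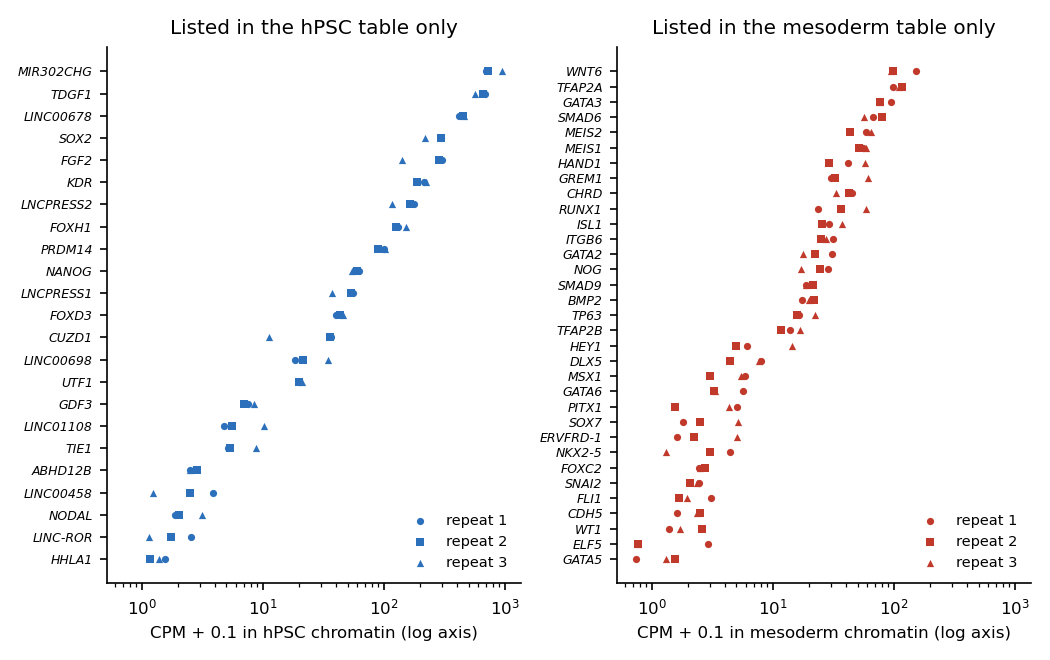
Level (CPM + 0.1, log axis) of the list members reported here that were in 1 table only, with a mean of at least 1 CPM, in the 3 chromatin libraries of that cell type: pluripotency, lncRNA, Nodal and endothelial lists in hPSC (left), lateral plate, amnion, BMP and endothelial lists in mesoderm (right). NANOG, SOX2 and KDR appear on the left and HAND1, ISL1 and TFAP2A on the right; the other cell type has no value.

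Genes of DNA replication and the G1/S transition were mostly lower on mesoderm chromatin. Of 25 tested, 17 fell, 2 rose and 6 did not pass, with a median of -0.86. Over all genes tested 19.7% fell and 23.3% rose. On shared transcripts 10 of 24 fell and 1 rose, against 15.9% and 14.5% over all. Without hPSC chromatin repeat 3, 12 of 25 fell and 2 rose. The replicative helicase subunit MCM5 was at 421, 451 and 540 CPM in hPSC and 122, 137 and 168 CPM in mesoderm (-1.72, SE 0.24, edgeR adjusted p = 4.5e-04). ORC1 fell by 1.65, GINS2 by 1.62, E2F1 by 1.78, PCNA by 1.31 and CCNE1 by 1.45. E2F1 and CCNE1 were not called on shared transcripts (log2 -0.98 and -2.98, edgeR adjusted p = 0.27 and 0.069). The cyclin-dependent kinase inhibitor CDKN1C was at 1.82, 0.926 and 0.807 CPM in hPSC and 30.6, 14.0 and 20.8 CPM in mesoderm. It rose by 4.16, and cyclin CCND2 rose by 0.71. Among 28 genes of DNA methylation and Polycomb repression, 5 rose and 5 fell, near the background in both directions, and 0 rose and 5 fell of 21 on shared transcripts by edgeR. Besides DNMT3B, UHRF1, which brings DNMT1 to replicated DNA, fell by 1.30 (-4.26 on shared transcripts) and CBX2 by 1.13. TET2, which oxidises methylcytosine, was at 0.377, 0.783 and 0.404 CPM in hPSC and 17.5, 20.0 and 23.1 CPM in mesoderm, a rise of 5.25. EZH2 (-0.25), SUZ12 (0.52), EED (0.32) and DNMT1 (0.09) did not pass the test.

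Of 11 tested nuclear and chromatin-bound RNAs, 3 rose, 1 fell and 7 did not pass. The 3 rises are near the share of all genes that rose (23.3%). On shared transcripts 1 of 6 rose and 0 fell by edgeR. Without mesoderm chromatin repeat 3, 4 rose and 0 fell by edgeR, so the 1 fall was not called there. Summed over the members listed, the groups overlapped, with 4483 to 5155 CPM in hPSC and 4346 to 4814 CPM in mesoderm. NEAT1, the scaffold of paraspeckles, was at 1.07, 1.14 and 2.34 CPM in hPSC and 154, 136 and 190 CPM in mesoderm (6.73, SE 0.38, edgeR adjusted p = 3.6e-06). MALAT1, a nuclear-speckle RNA, was at 166, 146 and 98.3 CPM in hPSC and 497, 397 and 900 CPM in mesoderm (2.13, SE 0.36, edgeR adjusted p = 0.0013). FTX, a noncoding RNA of the X inactivation centre, was at 21.6, 20.6 and 25.7 CPM in hPSC and 429, 426 and 415 CPM in mesoderm, a rise of 4.23 and of 2.39 on shared transcripts. NEAT1 and MALAT1 had no common Ensembl transcript with enough counts to test. Small-RNA hosts GAS5 (-0.06) and SNHG1 (-0.13) and the lncRNA TUG1 (-0.25) overlapped between groups. MIAT stood at 595, 583 and 941 CPM in the hPSC table only, and the imprinted lncRNAs KCNQ1OT1 and H19 at 60.8, 58.7 and 67.7 CPM and 45.6, 48.8 and 49.8 CPM in the mesoderm table only. On the scale of the 12 chromatin and cytoplasm libraries, MALAT1 was lower on hPSC chromatin (168, 145 and 98.4 CPM) than in hPSC cytoplasm (269, 288 and 228 CPM). In mesoderm it was higher on chromatin (440, 354 and 851 CPM) than in cytoplasm (158, 184 and 205 CPM). NEAT1 had the same order, with 1.52 ± 0.713 CPM on hPSC chromatin and 3.69 ± 0.756 CPM in hPSC cytoplasm, against 146 ± 30.1 and 41.2 ± 1.60 CPM in mesoderm (SD, n = 3).

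Messenger RNAs of cytosolic ribosomal proteins were lower on mesoderm chromatin. Of 83 tested genes of cytosolic ribosomal proteins, picked by symbol, 68 fell and 0 rose by the edgeR test, with a median of -1.23. They took 4.87% to 5.66% of counts in hPSC chromatin and 1.46% to 3.15% in mesoderm chromatin. GAPDH, the glycolytic enzyme, was at 2834, 3076 and 2952 CPM in hPSC and 757, 517 and 1243 CPM in mesoderm, and fell by 1.82 (SE 0.36). Of the 9 listed cytoplasmic controls, 4 fell and 0 rose by the edgeR test; without mesoderm chromatin repeat 3, 8 of 9 fell. Of the 13 mitochondrial mRNAs, 1 fell (MT-ATP6, log2 -1.79, SE 0.60) and 12 did not pass; on shared transcripts 0 of 12 were called by edgeR (MT-ATP6 adjusted p = 0.083). Without mesoderm chromatin repeat 3 all 13 fell. That library held 48057 CPM of them, against 8959 and 6883 CPM in repeats 1 and 2 and 40242 to 48271 CPM in hPSC. What part these shares have in the other results was not tested. The ribosomal protein genes, GAPDH, POU5F1, KRT8 and KRT18 have near-identical pseudogene copies, and how reads were divided between copies is not given in the sources used here.

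The largest changes lay mostly in genes that could not be tested on a transcript common to both tables. The 15 largest rises had a mean of at least 10 CPM, no overlap and a symbol. Of these, 12 had no common Ensembl transcript with enough counts to test, and in 14 the hPSC table listed 1 transcript only. COL3A1, HAPLN1 and TBX3 were the 3 with a common transcript that could be tested, and all 3 were called on it. LRP2 (megalin), an endocytic receptor, was at 0.126, 0.142 and 0.161 CPM in hPSC and 223, 422 and 264 CPM in mesoderm, with 1 transcript in the hPSC table and 4 in the mesoderm table. The chromosome-compaction protein SMCHD1 was at 0.377, 0.570 and 0.242 CPM in hPSC and 128, 166 and 139 CPM in mesoderm, with 1 and 3 transcripts. The chaperone DNAJC21, with 1 and 5 transcripts, rose by 8.10 on the log2 scale. The SUMO protease SENP7 held 2 counts in all in hPSC, which gives a ratio of 938 (95% counting interval 259 to 7756, exact). The axonal cell-adhesion protein CNTN4 had 0 counts in all hPSC chromatin libraries and 19.9, 21.4 and 33.0 CPM in mesoderm, at least 115-fold higher against the limit that a count of 0 allows (3 counts a library). On the same floor the pseudogene CROCCP3 was at least 338-fold higher and the zinc-finger gene ZFP14 at least 94.3-fold. For SENP7, CNTN4, CROCCP3 and ZFP14 the hPSC table listed fewer transcripts, and no common one could be tested. Their bounds and interval therefore hold for the transcripts listed and not for the whole gene. MTMR7, LRRN4, SLX4IP, ZNF808 and B4GALT5 completed the 15, with log2 fold changes of 8.31 to 9.16.

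Of the 15 largest falls by the same rule, 11 had no common Ensembl transcript with enough counts to test. In 14 the mesoderm table listed 1 transcript only. The structure-specific nuclease subunit SLX1B had 0 counts in mesoderm and 28.6, 32.0 and 33.3 CPM in hPSC, at least 65.3-fold lower, and it has a near-identical copy, SLX1A, to which reads could be assigned. SFT2D3 was at least 43.5-fold lower on the same floor. HDAC2-AS2, a noncoding RNA antisense to HDAC2, was at 645, 677 and 736 CPM in hPSC and 2.78, 2.12 and 2.40 CPM in mesoderm (5 and 2 transcripts). NOTCH1, the receptor, was at 309, 294 and 454 CPM in hPSC and 4.92, 21.0 and 2.94 CPM in mesoderm (2 and 1 transcripts); mesoderm repeat 2 stood above the other repeats and still below all hPSC libraries (-5.17, SE 0.67, edgeR adjusted p = 3.0e-04). The ubiquitin ligase RNF125 was at 45.8, 40.7 and 39.3 CPM in hPSC and 0.642, 0.529 and 1.47 CPM in mesoderm. It and WIPF3 fell on their common transcript too, by 5.38 and 5.56 on the log2 scale. These and SLX1B and SFT2D3 were the 4 with a common transcript that could be tested. PREX2, PFKFB2, KLHL3, RBFOX3, RPL18AP3, GRM4, LIMK1, MSH5-SAPCD1 and SLC13A3 completed the set, with log2 fold changes from -6.18 to -5.01. RPL18AP3 and CROCCP3 are pseudogenes, whose reads could belong to their parent genes, and HDAC2-AS2 and MIR302CHG lie antisense to other genes. Whether counting used strand is not given in the sources used here, and without strand such pairs cannot be told apart.

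Among all genes found in 1 table only, 502 of 2633 in hPSC and 672 of 2522 in mesoderm had a mean of at least 10 CPM on chromatin. They held 3.60% to 3.85% of the counts of the hPSC chromatin libraries and 3.08% to 4.19% of the mesoderm ones. Highest in hPSC were the lincRNA ENSG00000274090 (2601, 2184 and 1395 CPM), ENSG00000278996, the semaphorin SEMA3E (783, 789 and 983 CPM), MIR302CHG and ENSG00000260834. Highest in mesoderm was RNA5-8SN4, a ribosomal RNA gene, but 1 library carried it, with 228, 8302 and 437 CPM. PRTG (protogenin), an immunoglobulin-family receptor of the early embryo, stood at 621, 838 and 1731 CPM, and the secreted IGFBP7 at 312, 193 and 390 CPM. FGFR3 and ENSG00000290391 were the others.

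The change on chromatin was set against that in cytoplasm from the same cell types, to ask where the fractions differ. In cytoplasm 6205 of 12346 genes were called (50.3%), 3186 higher (25.8%) and 3019 lower (24.5%). Of the 5230 chromatin calls, 3747 were called in cytoplasm the same way, which is 71.6% of the chromatin calls and 60.4% of the cytoplasm calls, and 72 the opposite way; both fractions were counted against the same pair of assemblies. Of the list members in cytoplasm, 16 pluripotency genes fell and 0 rose by edgeR, 18 matrix genes rose and 2 fell, 14 BMP genes rose and 1 fell, and 14 epithelial genes rose and 0 fell. Of the replication list 19 fell and 3 rose, and of the DNA methylation and Polycomb list 13 fell and 5 rose. The difference of the 2 changes, chromatin minus cytoplasm, was called for 1148 of 12346 genes (9.30%), 399 positive (3.23%) and 749 negative (6.07%), and its median over all genes was -0.13. This count rested on single libraries: it was 449 without mesoderm cytoplasm repeat 2 and 2711 without mesoderm chromatin repeat 3. Its balance turned as well: 34.8% of the calls were positive here, 49.8% of 868 with scaling by library totals, 50.6% with DESeq2 and 65.2% in TPM plus 1. With 1 library left out, positive calls were 52.6% to 55.2% without any mesoderm cytoplasm library or without hPSC cytoplasm repeat 2 or 3. The difference for FN1 was log2 -0.28 (SE 0.36) and was not called. NEAT1 (3.11, SE 0.38), MALAT1 (2.52, SE 0.41) and FTX (2.15, SE 0.30) had called positive differences by edgeR, with adjusted p of 5.2e-04, 0.0036 and 0.0013. TCF7L2 (1.54) and the neural filament nestin NES (1.18; not called on chromatin alone, though called higher there on shared transcripts, log2 0.77, edgeR adjusted p = 0.027) were higher in mesoderm relative to hPSC on chromatin than in cytoplasm, where their log2 fold changes were -0.16 and -0.71. Of the 13 mitochondrial mRNAs, 13 had a called negative difference. Their summed level on the 12-library scale was 40137 to 48866 CPM on hPSC chromatin and 3474 to 6132 CPM in hPSC cytoplasm. In mesoderm it was 7926, 6128 and 45442 CPM on chromatin and 48762 to 64850 CPM in cytoplasm. Every mesoderm chromatin library thus lay below every mesoderm cytoplasm library, the opposite order to hPSC. Mesoderm chromatin repeat 3 came closest to the cytoplasm.

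**Figure D5:**
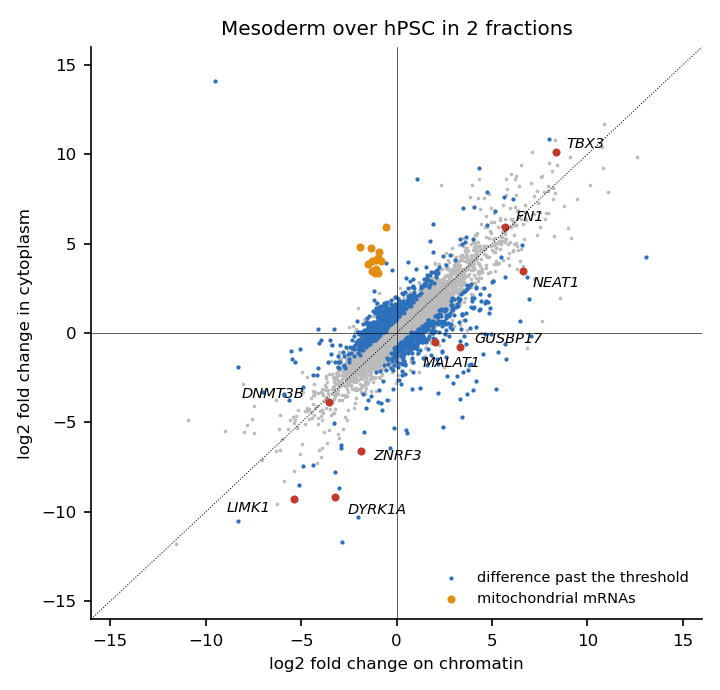
Log2 fold change (mesoderm over hPSC) on chromatin (x axis) and in cytoplasm (y axis) for each gene, from 1 fit to 12 libraries; blue marks a called difference, orange the 13 mitochondrial mRNAs and red the genes named. The mitochondrial mRNAs sit left of 0 on chromatin and between 3.33 and 5.95 in cytoplasm, and NEAT1 lies right of the line.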

How the data were processed

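RNA from the chromatin pellet and the cytoplasm of H1 hPSC and of mesoderm derived from them was sequenced in 3 libraries each. The authors deposited, per cell type, a table with whole-number read counts and TPM (reads corrected for transcript length and library size) for each transcript of an assembly made for that cell type, and the submitters' processing notes name STAR, RSEM and hg38, with no version or role. Whether the deposited counts are rounded RSEM estimates, and whether strand was used, is not given in the sources used here. A single ectoderm column (1) that matches no sample was not used.

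Counts were summed per Ensembl gene without its version, and the tables were joined on it. Rows without an Ensembl gene (189 in the mesoderm and 437 in the hPSC table) stayed out of totals and tests and held 1.08% to 1.37% of hPSC and 3.38% to 9.60% of mesoderm chromatin counts. Genes were filtered with filterByExpr (minimum count 10), scaled with TMM and tested with edgeR 4.0.16 (quasi-likelihood; R 4.3.3), with Benjamini-Hochberg adjustment over all genes tested and a threshold of 0.05. One fit to 12 libraries gave the cytoplasm change and the difference between fractions. Levels are TMM-scaled CPM and are not corrected for length, so tests were made within a gene only. Rankings, sums over lists and the levels of GATA factors set side by side also depend on transcript length. GENCODE 29 gave gene types and coordinates (hg38) for 96.26% of genes, and RefSeq (GRCh38.p14) gave promoters and microRNAs. Alternatives used DESeq2 1.42.0, limma 3.58.1 on log2(TPM + pseudocount) with pseudocounts of 1 and 0.1, other scalings and filters, and each library left out. A further alternative fitted the chromatin libraries of all 4 cell types together, ectoderm and endoderm included. The steps were tested on simulated counts. The repeat numbers did not pair the hPSC with the mesoderm chromatin libraries. Whether they pair chromatin with cytoplasm libraries was not tested.

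The members and gene lists were chosen with earlier results of these data known. Genes named are the 15 largest rises and falls (called, mean of at least 10 CPM, no overlap), up to 4 called members per list and direction, 12 list members always given or looked up, the 6 largest differences between fractions in each direction, and the 5 highest genes found in 1 table; other list members were named for their role after their values were seen. A member of the pluripotency list counts in its totals and is not reported here by itself.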

Additional observations from a re-analysis of the deposited data

Results flagged for a closer look

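In 12 genes, the largest called differences in each direction, the change from hPSC to mesoderm on chromatin differed from that in cytoplasm by the edgeR interaction test. Of the 6 with a positive difference, 5 stood below 1 CPM in every mesoderm cytoplasm library and had a higher mean on mesoderm chromatin. None of these 6 could be tested on transcripts common to both tables, while all 6 with a negative difference could. Whether unlike transcripts in the 2 tables have a part in the positive differences was not tested. The kinase DYRK1A had a log2 difference of 5.96 (SE 0.71, edgeR adjusted p = 4.3e-04), with 33.4, 36.4 and 38.0 CPM on hPSC chromatin, 2.46, 2.82 and 6.06 CPM on mesoderm chromatin, and 0.131, 0 and 0 CPM in mesoderm cytoplasm. In TPM plus 1 the difference for DYRK1A was -0.16 and was not called by limma. ZNRF3, a ligase that removes FZD receptors, had a difference of 4.73 (SE 0.41), the actin regulator kinase LIMK1 3.91 (SE 0.46) and the transcription factor MEF2B 3.82 (SE 0.56). For the matrix protein HMCN1 it was 3.38 (SE 0.95), and it changed sign in TPM as well (-0.52). The pseudogene GUSBP17 differed by 4.08 (SE 0.51): it stood at 113, 132 and 69.7 CPM on mesoderm chromatin and at 4.01, 2.06 and 2.69 CPM in mesoderm cytoplasm.

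The 6 negative differences were mitochondrial mRNAs, which encode subunits of the respiratory chain and ATP synthase. They were -6.72 for MT-ATP6, -6.49 for MT-ATP8, -6.07 for MT-ND4L, -5.46 for MT-ND3, -5.36 for MT-ND6 and -5.30 for MT-ND2. Levels of MT-ATP6 were 1314, 1023 and 992 CPM on hPSC chromatin, 47.4, 40.4 and 68.7 CPM in hPSC cytoplasm, 108, 126 and 655 CPM on mesoderm chromatin and 1443, 1641 and 1336 CPM in mesoderm cytoplasm.

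Features without an Ensembl gene, which entered no test, held 8.39%, 9.6% and 3.38% of the counts of mesoderm chromatin repeats 1, 2 and 3, against at most 1.37% in hPSC chromatin. A single feature held 6.34%, 2.01% and 2.75% of those mesoderm libraries.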

How the results depend on the processing

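The 5230 calls on chromatin became 2960 on shared transcripts. They lay within 1.5 times under DESeq2, other filters and scalings, TPM and each library left out (3746 to 5913). A joint fit to the chromatin libraries of all 4 cell types, with ectoderm and endoderm added, called 5826 of 10671 genes. With the repeat number as a block the calls were 3771, and 775 for the difference. Repeat numbers did not pair the hPSC with the mesoderm chromatin libraries (correlations of deviations -0.178, -0.333 and -0.402). Of 3 hPSC chromatin libraries, 0 correlated best with their own number in mesoderm. The 1148 differences became 1841 with DESeq2, 421 on shared transcripts, 696 in TPM plus 1 and 449 to 2711 with each library left out: 653 and 618 without hPSC chromatin repeats 1 and 2, 453 and 604 without hPSC cytoplasm repeats 2 and 3, 2711 without mesoderm chromatin repeat 3, and 485, 449 and 458 without mesoderm cytoplasm repeats 1, 2 and 3. Of 4733 values of 270 named genes, 4333 kept direction and side of the threshold, 232 lost the call, 155 gained it and 13 reversed. On shared transcripts the reversals were VCAN (-1.52), BMPR1A (-0.054), EZH1 (-0.23), VEGFA (1.59), ACVR1 (-0.89), TCF7L2 (-1.35), TCF7L1 (-0.56), ETV4 (2.30) and PCGF2 (2.67). In TPM with pseudocounts of 0.1 and 1 they were AXIN2 (0.19 and 0.18) and COL4A1 (-1.62 and -1.60). Of 210 values of the 12 differences, 193 stayed, 15 lost the call and 2 reversed in TPM plus 1, DYRK1A (-0.16) and HMCN1 (-0.52). On shared transcripts a gene's value rests on fewer transcripts; for the other alternatives the cause was not tested. Mesoderm libraries, with fewer counts, limit low genes.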
